A study of Mus musculus with 6 samples.

Results

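The AP-1 family transcription factors described here are 10 genes: Fos, Fosb, Fosl1, Fosl2, Jun, Junb, Jund, Batf, Batf3 and Atf3. They were taken by gene symbol from 18288 genes in the deposited table, and all 10 were found there and passed the filter on low values. The samples are mouse CD8+ T cells activated in culture and profiled by RNA sequencing on day 2. There are 3 libraries labelled Nae1T-KO (replicates 1 to 3) and 3 labelled Nae1WT, the wild-type group. The age and strain of the mice, the deleted allele, the promoter that drives the deletion and the stimulus were not given in the sources used here. The labels call the replicates biological but do not say whether each came from a separate mouse, so p-values reflect only the spread among these libraries, which may be technical.

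AP-1 is a dimer of proteins that share a basic leucine zipper, a helix that contacts DNA and pairs with a partner. JUN proteins pair with each other or with FOS proteins, whereas FOS proteins need a JUN partner. BATF, BATF3 and ATF3 belong to the same superfamily, and BATF with a JUN protein binds composite sites next to IRF4 in activated T cells. T cell receptor signals reach AP-1 through the ERK, JNK and p38 kinases, and AP-1 with NFAT drives cytokine genes such as Il2. Nae1 encodes a subunit of the enzyme that starts NEDD8 attachment, which activates cullin ubiquitin ligases. Ligases of that class act on the JUN protein. Protein was not measured here, and the values below are transcript levels.

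Values are normalized counts, meaning each library's read counts over its own size factor. The libraries held 15628252 to 25444653 reads assigned to genes. Nae1 had 338 to 390.3 normalized counts across Nae1T-KO libraries against 1601 to 1882 in the Nae1WT libraries. CD8 T cell markers were abundant, with 8 of 9 found and summed levels of 30110.1 to 31351 in Nae1T-KO against 31606 to 33589 in Nae1WT. Of these 8, Cd3g was lower in Nae1T-KO (log2 fold change -0.51, limma adjusted p = 0.00365) and Zap70 higher (0.28, adjusted p = 0.0227). The other 6 did not pass at an adjusted p under 0.05. That is 25% called, against 12.7% of all tested genes. By Xist and Y-linked transcripts, Nae1T-KO replicates 1 and 2 and Nae1WT replicate 3 were female and the other 3 libraries male. Markers of B cells (7 of 8 found) summed to 201, 547 and 263 in Nae1T-KO against 233, 225 and 355 in Nae1WT. Erythroid markers (7 of 8 found) summed to 368, 2048 and 203 in Nae1T-KO against 145, 318 and 643 in Nae1WT, highest in Nae1T-KO replicate 2. CD4 T cell markers (6 of 6 found) summed to 261, 374 and 336 in Nae1T-KO against 291, 198 and 308 in Nae1WT. NK and gamma-delta T cell markers (4 of 7 found) summed to 714 to 917 in Nae1T-KO against 1309 to 1659 in Nae1WT. Nearly all of it was Eomes, which CD8 T cells also express and which was lower in Nae1T-KO (log2 fold change -0.86, limma adjusted p = 0.00159). Ncr1, Klrb1c and Klra4 had 0 to 18.4 normalized counts per library. In bulk RNA, fewer cells of a type and less RNA per cell cannot be told apart.

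Fosl1, Fosl2 and Jun were higher in Nae1T-KO. Their levels were 2.33-fold, 1.82-fold and 1.52-fold those of Nae1WT. The other 7 members did not pass the test (limma, adjusted p under 0.05 over 13819 tested genes), and 0 members were lower. At an unadjusted p under 0.05, 3 members were higher and 0 lower in limma and in edgeR, and 4 were higher and 1 lower in DESeq2. The share of all tested genes at that unadjusted threshold was not counted, so these counts have no background, here or for the lists below. Of all tested genes, edgeR called 942 higher and 854 lower at an adjusted p under 0.05, and DESeq2 1035 higher and 1012 lower. These totals are also the background for the lists below. The 3 of 10 higher members stand beside a background of 6.53% of all tested genes called higher, 6.18% called lower and 12.7% called in either direction. The median log2 fold change was 0.23 over the 10 members and -0.0061 over all tested genes. The groups did not overlap for 5 of 10 members, all higher in Nae1T-KO, against 33.7% of all tested genes in either direction and 16.7% with Nae1T-KO above. The number of genes called in all, 1757, fell to 1034 when Nae1T-KO replicate 2 was left out, to 844 when Nae1WT replicate 2 was and to 954 when Nae1WT replicate 3 was. The family count was 3 in each of these fits. Scaling to total reads gave 1176 genes higher and 621 lower, against 903 and 854 with the deposited scaling, and the same 3 members were called.

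**Figure D1:**
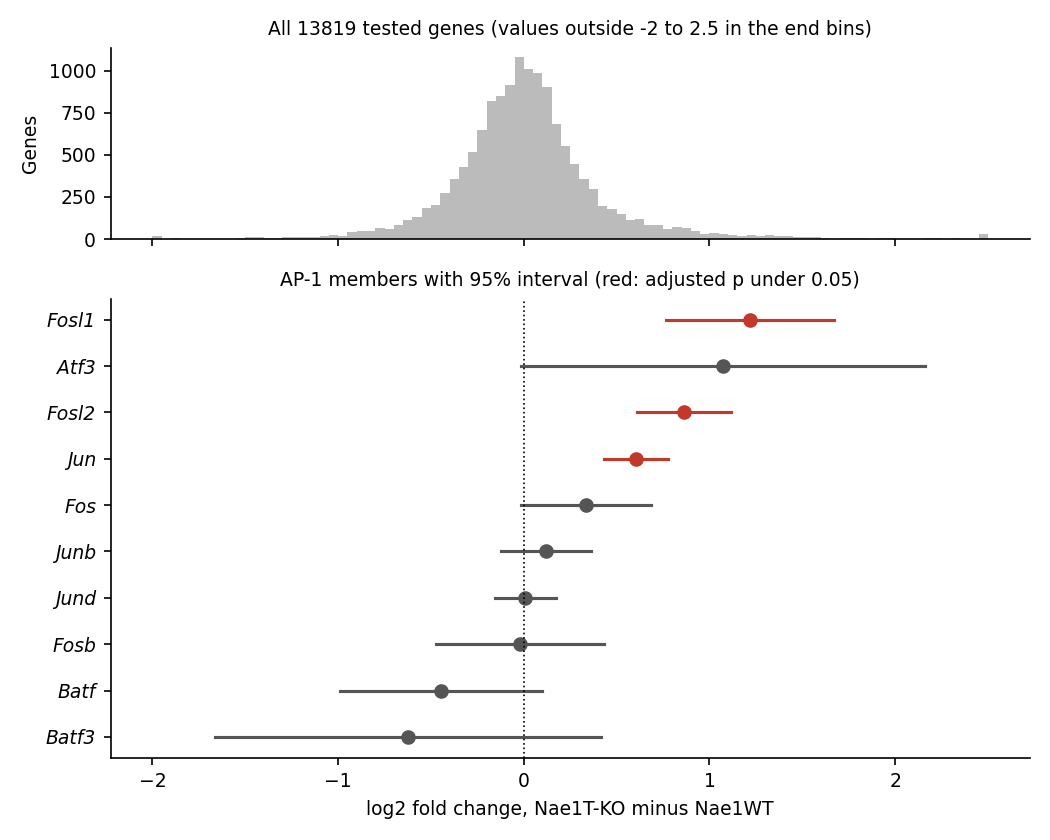
Log2 fold changes of the 10 AP-1 members with 95% intervals (lower panel, red where the adjusted p is under 0.05) beneath the distribution over all 13819 tested genes (upper panel, number of genes per bin). Fosl1, Fosl2 and Jun lie to the right of 0 with intervals that leave it out, and the interval of Atf3 is the widest, from -0.017 to 2.16.

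Within the FOS subfamily the 2 Fos-related antigen genes rose. Fosl1 encodes FRA-1, which lacks the strong activation domain of FOS. Fosl1 had 90.6, 100.5 and 102 normalized counts across Nae1T-KO libraries against 33.2, 49.1 and 43.4 in the Nae1WT libraries. Every Nae1T-KO library lay above every Nae1WT library, and the level was low throughout. The means were 97.7 ± 6.19 (SD, n = 3) and 41.9 ± 8.10 (SD, n = 3), giving a log2 fold change of 1.22 ± 0.20 (SE, limma adjusted p = 0.00469) with a 95% interval of 0.77 to 1.67. The reads behind Fosl1 were 81, 114 and 101 in Nae1T-KO against 27, 47 and 57 in Nae1WT. In GRCm38 Fosl1 lies on the plus strand of chromosome 19 from 5447547 to 5455946. Its 3' part overlaps Ccdc85b on the opposite strand, a gene at a mean of 550.4 ± 54.7 normalized counts across Nae1T-KO libraries against 634 ± 78.9 in Nae1WT (SD, n = 3). Its log2 fold change was -0.20 (limma adjusted p = 0.275). The use of strand in counting is not given in the sources used here, so reads of the overlap may be shared.

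Fosl2, which encodes FRA-2 and is the FOS gene with the highest level per length here, had 1595, 1462 and 1170.3 normalized counts across Nae1T-KO libraries against 729, 739 and 844 in Nae1WT. The groups were well apart, with Nae1T-KO replicate 3 the lowest of its group. The means were 1409 ± 217 (SD, n = 3) and 771 ± 63.8 (SD, n = 3), giving a log2 fold change of 0.86 ± 0.11 (SE, limma adjusted p = 0.00155) with a 95% interval of 0.61 to 1.11. Fosl2 lies on chromosome 5 from 32135801 to 32157842, Fos on chromosome 12 from 85473890 to 85477273 and Fosb on chromosome 7 from 19302696 to 19310051. Fos itself, the immediate early gene of T cell receptor signalling, was expressed at a low level on day 2. Fos had 112, 129.5 and 119 normalized counts across Nae1T-KO libraries against 89.6, 87.8 and 109 in Nae1WT. The groups did not overlap, but Nae1T-KO replicate 1 and Nae1WT replicate 3 lay close together, and the test was not passed (log2 fold change 0.33, 95% interval -0.017 to 0.68, limma adjusted p = 0.191). Fosb, which encodes a close relative of FOS, had 68.2, 67.9 and 63.6 normalized counts across Nae1T-KO libraries against 67.5, 54.4 and 83.7 in Nae1WT. The Nae1T-KO range lay within the Nae1WT range (log2 fold change -0.021, 95% interval -0.47 to 0.43, limma adjusted p = 0.961), and the sign of the change turned in 3 of 17 alternative fits. Gene-level counts do not separate full-length Fosb from its truncated splice form.

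**Figure D2:**
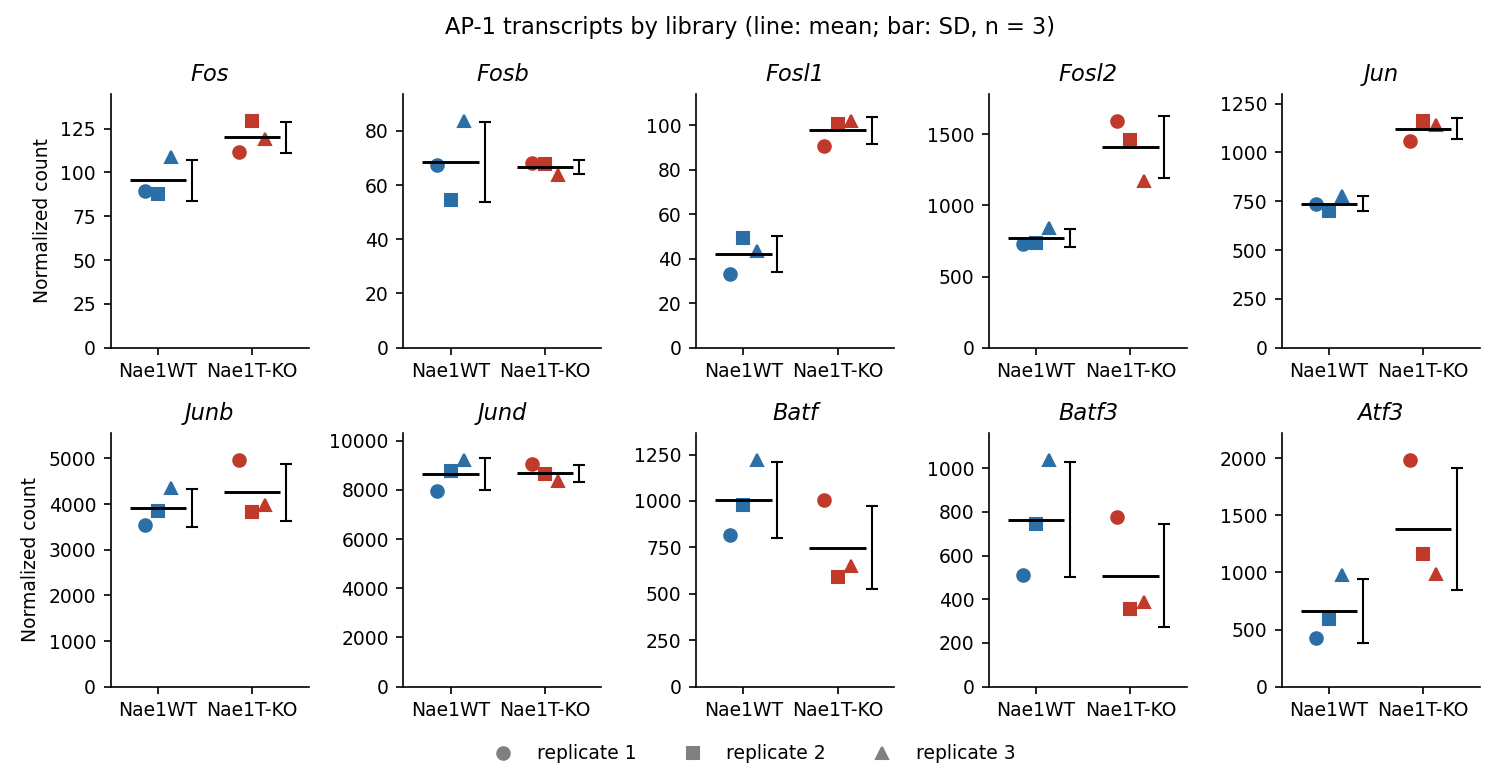
Normalized counts of the 10 members in the 6 libraries, 1 panel per gene with axes from 0. Marker shapes are replicates, horizontal lines are group means and bars are SD (n = 3). Fosl1, Fosl2 and Jun separate clearly by group, whereas Batf, Batf3 and Atf3 spread widely within each group.

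Of the JUN genes, which are all encoded by 1 exon, Jun rose and the more abundant Junb and Jund did not pass. Jun, the partner of FOS in classical AP-1, had 1060.3, 1162 and 1140.0 normalized counts across Nae1T-KO libraries against 734, 702 and 776 in Nae1WT. The libraries of each group lay close together, with a coefficient of variation of 4.79% in Nae1T-KO against 4.99% in Nae1WT. The means were 1121 ± 53.7 (SD, n = 3) and 738 ± 36.8 (SD, n = 3), giving a log2 fold change of 0.60 ± 0.08 (SE, limma adjusted p = 0.00126) with a 95% interval of 0.43 to 0.77. Jun lies on chromosome 4 from 95049034 to 95052222. It kept its call in 17 of 17 alternative fits. Its antisense neighbour Junos had a mean of 16.9 normalized counts across Nae1T-KO libraries against 10.3 in Nae1WT.

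Junb, which encodes a JUN protein that can restrain or replace JUN, had 4972, 3826 and 3981 normalized counts across Nae1T-KO libraries against 3537, 3846 and 4351 in Nae1WT. The groups overlapped (log2 fold change 0.12, 95% interval -0.12 to 0.36, limma adjusted p = 0.517). The log2 fold change of Junb was 0.0018 without Nae1T-KO replicate 1 and 0.20 without Nae1WT replicate 3. Jund, whose product is present in resting as well as dividing cells, had 9051, 8628 and 8369 normalized counts across Nae1T-KO libraries against 7966, 8751 and 9228 in Nae1WT. The group means were 8683 ± 344 (SD, n = 3) and 8648 ± 637 (SD, n = 3), with a log2 fold change of 0.0076 (95% interval -0.16 to 0.17, limma adjusted p = 0.960), whose sign turned in 4 of 17 alternative fits. Junb and Jund lie on chromosome 8, from 84974484 to 84978718 and from 70698949 to 70700616, which is 19.5 and 33.8 Mb from Nae1. Junb overlaps the end of Prdx2 on the opposite strand, which had a log2 fold change of 0.09 (adjusted p = 0.456).

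Among the BATF genes and Atf3 no difference passed the test, with log2 fold changes of 1.07 for Atf3, -0.62 for Batf3 and -0.45 for Batf. Atf3, a gene induced by many kinds of stress, had 1985, 1163 and 989.6 normalized counts across Nae1T-KO libraries against 426, 593 and 973 in Nae1WT. The groups did not overlap, but Nae1T-KO replicate 3 and Nae1WT replicate 3 nearly met. The means were 1379 ± 532 (SD, n = 3) and 664 ± 280.3 (SD, n = 3), giving a log2 fold change of 1.07 ± 0.42 (SE, limma adjusted p = 0.176) with a 95% interval of -0.017 to 2.16. Without Nae1WT replicate 3 the log2 fold change was 1.39 (adjusted p = 0.0739, and 0.0739 to 0.711 over the 17 alternative fits, none of which called it). It was 0.78 without Nae1T-KO replicate 1 and 0.79 without Nae1WT replicate 1.

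Batf, which encodes the IRF4 partner that supports effector CD8 T cell growth, had 1003, 592 and 648 normalized counts across Nae1T-KO libraries against 814, 978 and 1222 in Nae1WT. Only Nae1T-KO replicate 1 reached into the Nae1WT range. The log2 fold change was -0.45 (95% interval -0.99 to 0.097, limma adjusted p = 0.250). Without that library it was -0.68 and passed (adjusted p = 0.0282, and 0.0282 to 0.51 over the alternative fits). It was -0.29 without Nae1WT replicate 3 and -0.30 without Nae1T-KO replicate 2. Batf3, known for its role in dendritic cells and in the survival of memory CD8 T cells, had 778, 355 and 389 normalized counts across Nae1T-KO libraries against 511, 744 and 1038 in Nae1WT. Nae1T-KO replicate 1 again lay among the Nae1WT libraries (log2 fold change -0.62, 95% interval -1.67 to 0.42, limma adjusted p = 0.383). Without it the log2 fold change was -0.98 (adjusted p = 0.0781, and 0.0781 to 0.679 over the alternative fits). It was -0.37 without Nae1WT replicate 3 and -0.41 without Nae1T-KO replicate 2.

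Levels of different members were compared as normalized counts per kb of the longest coding transcript in GENCODE M21. In Nae1WT the order was Jund at 5185 ± 382 (SD, n = 3), Junb at 2162 ± 227, Batf at 1052 ± 215, Batf3 at 954 ± 330.1, Atf3 at 335 ± 141, Jun at 231 ± 11.5, Fosl2 at 118 ± 9.75, Fos at 45.3 ± 5.54, Fosl1 at 22.5 ± 4.34 and Fosb at 18.1 ± 3.89 per kb. The ranges of Batf and Batf3, of Atf3 and Jun, and of Fosl1 and Fosb overlapped. Compared within libraries, the order of each of these pairs was not the same in all Nae1WT libraries. In Nae1T-KO, Atf3 at 695 ± 268 per kb (SD, n = 3) lay among Batf at 783 ± 233 and Batf3 at 634 ± 294. The range of Fosl1 at 52.4 ± 3.32 overlapped that of Fos at 57.0 ± 4.22. Within each Nae1T-KO library, Atf3 lay between Batf and Batf3, and Fosl1 lay below Fos. The sum per kb over the FOS genes was 343 ± 30.9 in Nae1T-KO against 204 ± 19.6 in Nae1WT (SD, n = 3), and over the JUN genes 7912 ± 518 and 7578 ± 609.8. Transcripts of JUN genes were thus far more abundant per kb than those of FOS genes in both groups.

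The makeup of each subfamily was described by shares. A share is a member's level per kb over the subfamily's sum in the same library, so the scaling between libraries cancels, and no test was applied. Atf3 made up 33.1%, 35.5% and 30.0% of the BATF and ATF3 sum in Nae1T-KO against 12.6%, 13.3% and 16.0% in Nae1WT. Its share separated the groups more widely than its level did. The share of Batf3 was 32.1%, 26.9% and 29.2% in Nae1T-KO against 37.4%, 41.3% and 42.3% in Nae1WT, and that of Batf was 34.8% to 40.8% against at least 41.7%. Within the FOS sum, Fos made up 14.6% to 18.4% in Nae1T-KO against 21.3% to 22.8% in Nae1WT, and Fosb 4.96% to 5.48% and 7.35% to 9.79%. The mean share of Fosl1 was 15.4% in Nae1T-KO against 11.1% in Nae1WT, with 13.4% in Nae1T-KO replicate 1 just under 13.5% in Nae1WT replicate 2, and Fosl2 held 57.1% to 67.1% throughout. Jun made up 3.91% to 4.76% of the JUN sum in Nae1T-KO against 2.90% to 3.31% in Nae1WT, and Jund at most 67.601% against at least 67.626%, so that its groups all but met. Without Nae1T-KO replicate 1 the difference in the share of Fosl2 was 2.56 percentage points in place of 4.77, that of Jund -1.53 in place of -2.57 and that of Junb -0.16 in place of 1.17. Without Nae1T-KO replicate 2 that of Junb was 2.18. The shares did not overlap between the groups for 7 of 10 members, Jund included, and the same count over other genes was not made. Shares within a sum depend on each other, so these 7 are not separate results. The share of Fos, for example, was lower in Nae1T-KO although its mean level per kb was not (57.0 against 45.3 in Nae1WT).

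**Figure D3:**
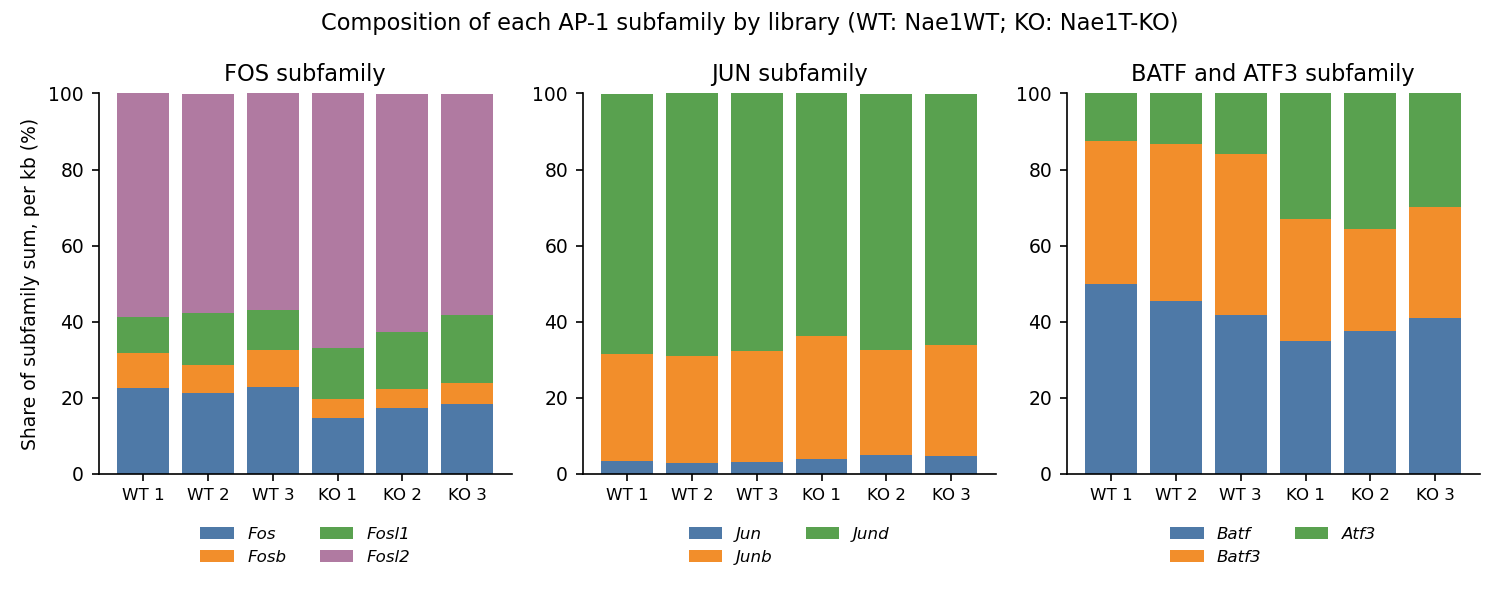
Share of each member (percent of its subfamily's sum of normalized counts per kb) in the 6 libraries, with Nae1WT (WT) to the left and Nae1T-KO (KO) to the right in each panel. The Atf3 segment is larger in all 3 Nae1T-KO libraries (30.0% to 35.5%) than in the Nae1WT libraries (12.6% to 16.0%).

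Several members were high in the same library of a group. Nae1WT replicate 3 was the highest of its group for 9 of 10 members (every one but Fosl1), and over all tested genes it was the highest for 31.0%. Nae1T-KO replicate 1 was the highest of its group for 7 of 10 members, against 33.7% of all tested genes. For Atf3, Batf and Batf3 these 2 libraries lay 0.30 to 0.71 above their group mean on the log2 scale. Batf3 and Atf3 are neighbours on chromosome 1, from 191097847 to 191108945 and from 191170296 to 191218039, 61.4 kb apart. Batf lies on chromosome 12 from 85686669 to 85709087, 209 kb from Fos, with Jdp2, another member of the superfamily, between them. Jdp2, described for its position, had 26.8, 15.0 and 8.08 normalized counts across Nae1T-KO libraries against 33.2, 25.1 and 32.7 in Nae1WT (log2 fold change -0.97, limma adjusted p = 0.142).

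**Figure D4:**
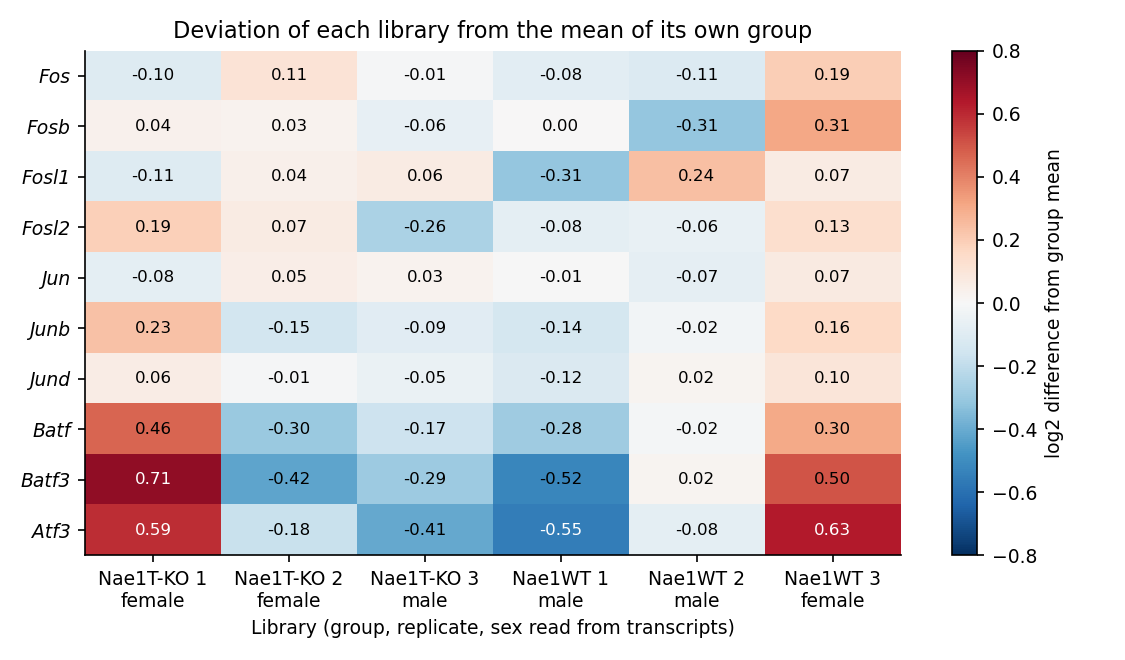
Log2 difference of each library from the mean of its own group, by member (rows) and library (columns, with the sex read from transcripts). Nae1T-KO replicate 1 and Nae1WT replicate 3 stand above their groups for Batf, Batf3 and Atf3, while Jun stays within 0.08 of its group mean in all 6 libraries.

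Between libraries of the same sex there are 4 possible pairs, which share libraries. The log2 difference between Nae1T-KO and Nae1WT in these pairs was 1.04 to 1.59 for Fosl1, 0.66 to 0.92 for Fosl2 and 0.45 to 0.70 for Jun. It was also positive in 4 of 4 pairs for Atf3 (0.26 to 1.21) and Fos (0.038 to 0.44). For Fosl1, Fosl2, Jun, Atf3 and Fos the positive sign follows from groups that did not overlap, and adds nothing to that. The difference was negative in 4 of 4 pairs for Batf (-1.04 to -0.28) and Batf3 (-1.55 to -0.39), whose groups overlapped. With sex as a covariate Fosl1, Fosl2 and Jun had 1.22, 0.76 and 0.59 and stayed past the threshold (limma, adjusted p = 0.00845, 0.000902 and 0.00286). Over the 17 alternative fits their adjusted p was 0.000135 to 0.107, 5.15e-10 to 0.0612 and 5.42e-08 to 0.045. A further limma fit asked whether the difference between Nae1T-KO and Nae1WT itself differed between the sexes. No member passed, with adjusted p from 0.964 to 0.985 and an unadjusted p of at least 0.300, and 6 of all tested genes passed. Nae1T-KO replicate 3 was the only male and Nae1WT replicate 3 the only female library of its group, so that fit could miss such differences. Whether levels differed by sex was not tested. The sum of myeloid and dendritic cell markers (7 of 14 found) was also higher in Nae1T-KO. It was 122, 182 and 162 there against 78.6, 62.7 and 79.9 in Nae1WT. Within Nae1T-KO it was lowest in replicate 1, where Fosl2 was highest. Of the 7 markers, 5 averaged under 10 normalized counts, and most of the sum came from Cd68 and Lyz2. Of these markers Itgam and Itgax were listed at 0 in Nae1WT replicate 2, and Cd14 and Flt3 in Nae1WT replicate 1. The part of such cells in the result was not tested. Without Nae1T-KO replicate 2, the library with the most erythroid and B cell transcripts, the log2 fold changes of Fosl1, Fosl2 and Jun were 1.20, 0.83 and 0.58, and all 3 were called.

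**Figure D5:**
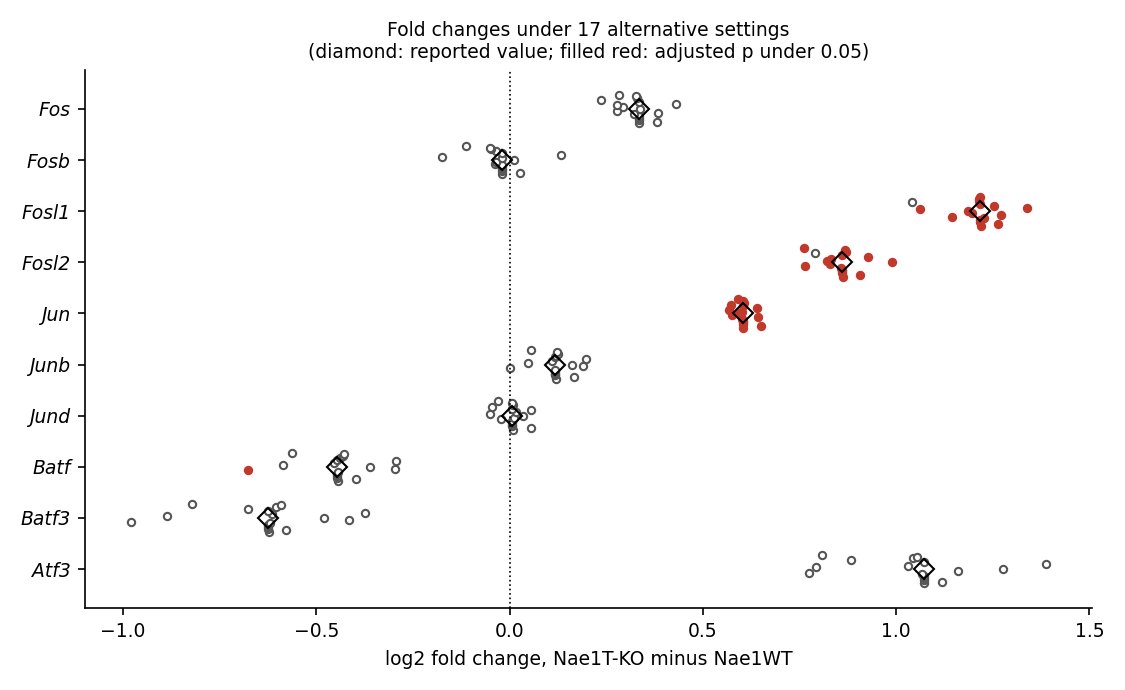
Log2 fold change of each member in 17 alternative fits (small circles, filled red where the adjusted p is under 0.05) and as reported (diamonds). Jun is red in all 17, Fosl1 and Fosl2 in 16, and Batf in 1.

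The sequences around the start sites of members that rose are shown with those of Fos and Atf3, whose groups did not overlap, for comparison of their regulatory motifs. Each window holds 250 bases before and 50 after the RefSeq start in GRCm38.p6, 5′ to 3′ on the gene's strand. They are chr4:95052173-95052472 (minus strand) for Jun, chr5:32136222-32136521 (plus) for Fosl2, chr12:85473640-85473939 (plus) for Fos and chr1:191183284-191183583 (minus) for Atf3. Capitals mark motif matches.
Jun: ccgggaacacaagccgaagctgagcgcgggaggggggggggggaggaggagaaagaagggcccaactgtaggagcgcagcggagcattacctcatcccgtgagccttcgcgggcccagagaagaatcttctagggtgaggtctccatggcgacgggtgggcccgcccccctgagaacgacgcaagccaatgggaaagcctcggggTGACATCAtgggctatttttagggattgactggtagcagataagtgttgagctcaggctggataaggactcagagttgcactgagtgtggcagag
Fosl2: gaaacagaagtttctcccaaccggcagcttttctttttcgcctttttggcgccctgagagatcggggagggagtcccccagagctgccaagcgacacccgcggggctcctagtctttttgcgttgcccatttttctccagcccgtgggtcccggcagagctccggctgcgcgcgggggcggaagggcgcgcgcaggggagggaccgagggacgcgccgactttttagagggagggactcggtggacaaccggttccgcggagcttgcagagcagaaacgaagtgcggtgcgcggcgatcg
Fos: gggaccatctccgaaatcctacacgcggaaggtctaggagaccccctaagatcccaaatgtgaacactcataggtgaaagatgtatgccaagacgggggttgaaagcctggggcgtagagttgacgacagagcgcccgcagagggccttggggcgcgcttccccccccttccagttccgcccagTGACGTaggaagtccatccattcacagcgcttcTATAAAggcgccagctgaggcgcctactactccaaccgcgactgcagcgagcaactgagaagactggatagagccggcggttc
Atf3: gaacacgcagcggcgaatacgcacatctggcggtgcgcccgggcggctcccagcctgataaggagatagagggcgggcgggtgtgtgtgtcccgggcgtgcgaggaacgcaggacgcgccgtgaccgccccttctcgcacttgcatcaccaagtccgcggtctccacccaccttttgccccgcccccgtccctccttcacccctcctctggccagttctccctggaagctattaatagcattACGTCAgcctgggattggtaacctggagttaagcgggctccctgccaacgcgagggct
Windows were matched for 9 of 10 members, with Fosl1 not matched. Both strands were searched for every motif but TATAAA, which was searched on the gene's strand only. The RefSeq start is the 5′ end of the GENCODE gene for Fos and Jun. It lies 6, 51, 567 and 671 bases downstream of that end for Fosb, Batf, Batf3 and Fosl2. For Atf3 it lies 34.7 kb downstream, 7 bases from the start of another annotated transcript of the gene. For Junb it lies 30 bases upstream and for Jund 1210 bases upstream, so that the Jund window does not reach the GENCODE gene. In Jun the capitals mark TGACATCA, a variant of the AP-1 site, which begins 45 bases before the start. TGACATCA or its reverse complement TGATGTCA was found in 3.62% of 32851 promoter windows and in 1 of the 9. In Fos the capitals mark TGACGT, a part of the cyclic AMP response element, 66 bases before the start and TATAAA 33 bases before it. In Atf3 they mark ACGTCA, the reverse complement of TGACGT, 8 bases before the start. TGACGT or ACGTCA was found in 7.51% of all windows and in Fos, Atf3 and Batf. TATAAA was found on the gene's strand in 8.32% of all windows and in 2 of the 9, Fos and Junb. In Junb it begins at the RefSeq start itself. The consensus AP-1 site (TGACTCA or TGAGTCA), found in 5.2% of all windows, the full element TGACGTCA (1.79%, which holds the shorter TGACGT) and the CArG box (1.63%) were in 0 of the 9. Fosl2 had a match to none of these motifs in this window. Sequence outside the windows was not searched, so a motif not found here, the CArG box included, may lie further from the start. The motif TGACGT was added after these sequences had been seen.

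Upstream of AP-1, the genes of the signalling list that passed the limma test were higher in Nae1T-KO. Of 37 tested genes on the list of signalling to AP-1, 7 were higher, 0 lower and 30 uncalled, which is 18.9% against 12.7% of all genes, with a median log2 fold change of 0.11 against -0.0061. At an unadjusted p under 0.05, 12 were higher and 4 lower in limma, with no share of all genes counted at that threshold. edgeR called 8 higher and 0 lower, and DESeq2 called 9 higher and 1 lower. Map2k3, a kinase that activates p38, averaged 2837 ± 238 normalized counts (SD, n = 3) in Nae1T-KO against 1719 ± 102 in Nae1WT (log2 fold change 0.72, limma adjusted p = 0.000668). Srf, the serum response factor that binds CArG boxes, had 2637 ± 103 and 1966 ± 52.3 (0.42, adjusted p = 0.00299). Mapk3, which encodes ERK1, had a log2 fold change of 0.52 (adjusted p = 0.0392) and Sos1, an activator of RAS, one of 0.43 (adjusted p = 0.0126). Mapk9, which encodes JNK2 and was named after its values were seen, had 0.38 and passed (adjusted p = 0.0193). Mapk8, named for its role as the JNK1 gene, had a log2 fold change of -0.20 and did not pass (adjusted p = 0.0908), although each Nae1T-KO library lay below each Nae1WT library.

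Of 32 tested genes for other factors of the superfamily, 4 were higher, 3 lower and 25 uncalled (21.9% called against 12.7% of all genes, median log2 fold change 0.09 against -0.0061). edgeR called 4 higher and 3 lower, and DESeq2 6 higher and 3 lower. All 3 small MAF genes on the list, whose products pair with NRF2 and BACH factors, rose. Mafg had 2104, 2125 and 2110.4 normalized counts across Nae1T-KO libraries against 1292, 1384 and 1467 in Nae1WT (log2 fold change 0.62, limma adjusted p = 0.000721). Maff and Mafk had log2 fold changes of 0.68 and 0.35 (adjusted p = 0.0119 and 0.0138), and Tef, of the PAR family, 0.57 (adjusted p = 0.00686). The 3 lower genes, named after their values were seen, were Hlf at -1.50, Xbp1 at -0.34 and Crebzf at -0.26 (adjusted p = 0.0471, 0.0273 and 0.0326). Hlf was near the filter with 6.27 normalized counts across Nae1T-KO libraries against 20.8 in Nae1WT.

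Of 9 tested genes for factors that bind DNA together with AP-1, Runx1 rose and Irf8 fell (22.2% called against 12.7% of all genes). edgeR also called 1 higher and 1 lower, and DESeq2 called 2 higher and 1 lower. Runx1 averaged 429.9 ± 24.0 normalized counts (SD, n = 3) in Nae1T-KO against 281 ± 13.7 in Nae1WT (log2 fold change 0.61, limma adjusted p = 0.00370). Irf8, a relative of IRF4 that also pairs with BATF, had 8243 ± 757 and 10490.5 ± 245 (-0.35, adjusted p = 0.0156). Irf4 itself, named for its role with BATF, had 11267, 11141 and 9814 normalized counts across Nae1T-KO libraries against 9522, 8335 and 9275 in Nae1WT. The groups did not overlap, with a log2 fold change of 0.25 that did not pass (limma adjusted p = 0.0695). Nfatc2, named for the role of NFAT beside AP-1, had 0.22 (adjusted p = 0.112).

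Of 24 tested genes known as AP-1 targets, 3 were higher, 1 lower and 20 uncalled (16.7% called against 12.7% of all genes, median log2 fold change 0.35 against -0.0061). edgeR called 4 higher and 1 lower, and DESeq2 5 higher and 4 lower. At an unadjusted p under 0.05, 9 were higher and 4 lower in limma, with no share of all genes counted at that threshold. The 3 genes higher in limma were the cytokine genes Il3 and Il2, at log2 fold changes of 2.64 and 1.56, and the activation marker Cd69. Cd69 had 3974, 4523 and 5249.8 normalized counts across Nae1T-KO libraries against 3362, 3435 and 3115 in Nae1WT (0.46, limma adjusted p = 0.0125). The lower gene was Spp1, at 117, 135 and 161 against 371, 551 and 259 (-1.45, adjusted p = 0.00735). Of 10 tested genes for ubiquitin ligases known to act on AP-1 proteins, 2 were higher and 0 lower, in limma, edgeR and DESeq2 alike, beside 6.53% higher and 6.18% lower of all genes in limma. At an unadjusted p under 0.05, 4 were higher and 0 lower in each of the 3 tools, again with no share of all genes counted. Fbxw7, the cullin ligase subunit that recognises phosphorylated JUN, had 935, 899.8 and 999 normalized counts across Nae1T-KO libraries against 623, 751 and 649 in Nae1WT (0.49, adjusted p = 0.00752). Smurf1 had a log2 fold change of 0.38 (adjusted p = 0.0123).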

How the data were processed

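RNA sequencing libraries of activated CD8+ T cells (3 Nae1T-KO, 3 Nae1WT) were made from poly-T captured RNA with random hexamers, per the labels' protocols. The submitters' processing notes name bcl2fastq, HISAT2, DESeq2 1.42.0 and mm10; the counter, its annotation and its use of strand were not given in the sources used here. The authors deposited a signal per gene and library, which the values show to be counts divided by a size factor: 100% of values were whole multiples of 1 read within 0.001 of a read, and the steps matched DESeq2's size factors. In Nae1T-KO replicate 3, whose step lies near 1, recovery is less certain. Recovered reads served the edgeR and DESeq2 alternatives. No gene had fewer than 11 reads over the 6 libraries together.

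Genes with a normalized count of at least 10 in at least 3 libraries went into limma 3.58.1 as log2(normalized count + 1) (R 4.3.3, trend, robust, group only, two-sided, Benjamini-Hochberg), which understates changes of low genes. Alternatives were TMM and total-read scaling, other filters and pseudocounts, leaving out each library, replicate blocks, edgeR 4.0.16, DESeq2 1.42.0 and sex as a covariate. For shares, leaving out each library and merged exon lengths were added after seeing the data. Members and lists were chosen with earlier results of these data known. Named genes are the 10 members, Nae1 and, of each pathway list, up to 4 called genes, taken by size of change among those averaging 50 normalized counts or more; others were named for role or position or after their values were seen. Positions and lengths come from GENCODE M21 and promoters from RefSeq, both on GRCm38. Amino acid sequences were not used here.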

Additional observations from a re-analysis of the deposited data

How the results depend on the processing

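Over 17 alternative fits Jun stayed past the threshold in 17, and Fosl1 and Fosl2 in 16 each. The number of genes called, 1757, was 844 to 1790 when each library was left out, and that of members called 3 to 4. With the replicate block by the numbers in the titles, 968 genes and 3 members were called. With the replicate block by the numbers in the library names, which leaves 4 libraries, 253 genes and 1 member (Jun) were called. Fosl1 (1.04, adjusted p = 0.107) and Fosl2 (0.79, adjusted p = 0.0612) then lost their calls. For same-numbered samples, deviations from the group means had r of -0.13, -0.18 and -0.27 across tested genes by the title numbers. By the library-name numbers r was -0.13 and -0.27. Deviations within a group are tied to each other through its mean, so these values cannot show whether same-numbered samples shared a source or batch. Fewer libraries are part of the construction of the library-name fit, and its other causes were not tested. Leaving out 1 library moved Fosb between -0.17 and 0.13 and Jund between -0.050 and 0.056. The sign of Fosb turned with total-read scaling (0.026), without Nae1T-KO replicate 3 (0.011) and without Nae1WT replicate 3 (0.13). That of Jund turned without Nae1T-KO replicate 1 (-0.023) or Nae1WT replicate 1 (-0.050), with the library-name replicate block (-0.046) and with sex as a covariate (-0.030). With merged exon lengths the share of Atf3 was 22.8 percentage points higher in Nae1T-KO in place of 18.9, and that of Batf differed by -12.2 in place of -8.02. The difference of the other 8 shares moved by less than 1 SD of the more variable group, although for Fosb (-3.02 in place of -3.70) and Fos (-6.61 in place of -5.45) it moved by more than the SD of the less variable one. Depth limits Fosl1, with 27 to 114 reads per library, and Fosb, with 52 to 110.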
